A study of Equus caballus with 4 samples.

Results

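The genes described here are 10 genes of caveolae and of membrane repair, *CAV1*, *CAV2*, *CAV3*, *MURC*, *PTRF*, *PRKCDBP*, *SDPR*, *EHD2*, *DYSF* and *PACSIN3*. They were found by the gene name that the array annotation gives each probe, which gave 16 of the 43603 probes and 10 of the 14718 named genes on the array. The 4 muscle members are *CAV3*, *MURC*, *DYSF* and *PACSIN3*, with 1 probe each, and the 6 widely expressed members are *CAV1*, with 5 probes, *CAV2*, with 3, and *PTRF*, *PRKCDBP*, *SDPR* and *EHD2*, with 1 each. The split was made from what is known of the tissues in which these genes are active. Messenger RNA came from equine satellite cells (ESC), the stem cells of skeletal muscle, isolated from the *semitendinosus* of 6-month-old colts and grown until day 3 of differentiation. Treated cells were given β-hydroxy-β-methylbutyrate (HMB), which the body makes from leucine, for the last 24 h, and control cells stayed in differentiation medium. The sample labels give the dose as 50 µg and the methods of the study as 50 µM, and which is right was not settled. Each of 4 two-colour arrays carried treated cells in Cy5 against control cells in Cy3. The dyes were never exchanged, so an effect of the dye and an effect of HMB cannot be told apart. The labels number the arrays as biological replicates, but which colt each array holds is not given in the sources used here, nor whether the treated and control cells on it share a donor. The methods do state that cells of each flask were divided between the HMB plate and the control plate. In the description field all samples are called GO-treated and share a replicate number, so treatment and replicate were taken from the titles.

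Caveolae are small flask-shaped pits of the plasma membrane that flatten when the membrane is stretched and so spare it from tearing. Caveolins, which sit in the inner leaflet, and cavins, which coat the pit from the cytoplasm, build them together. *CAV1* and *CAV2* encode the caveolins of most tissues and *CAV3* that of muscle. *PTRF*, *SDPR* and *PRKCDBP* encode the cavins of most tissues, and *MURC* encodes the cavin of striated muscle. *EHD2* encodes an ATPase at the neck of the pit, and *PACSIN3* a membrane-bending protein of muscle caveolae. *DYSF* encodes dysferlin, a calcium-binding membrane protein that takes part in the resealing of the torn sarcolemma, and mutations of it or of *CAV3* cause muscular dystrophies in humans.

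Each probe is a strand of 60 bases, and a ratio shows only the RNA that this stretch binds. Probes are printed for the muscle members, for *PTRF* and for *CAV1*, since these carry the contrast between the groups. Those of *CAV1* are not the probe from which its value is taken, A_69_P001396, which lies further downstream and is not printed, and they are shown because they overlap. In those of *MURC* and *PACSIN3*, capitals mark a stop codon at the last 3 bases in the frame that starts at base 1. In the pair of *CAV1* probes, capitals mark 20 bases that they share with each other and with a further *CAV1* probe. No part is marked in the others.
MURC: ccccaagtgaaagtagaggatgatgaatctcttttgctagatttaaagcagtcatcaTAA
PACSIN3: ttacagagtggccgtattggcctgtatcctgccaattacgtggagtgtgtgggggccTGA
CAV3: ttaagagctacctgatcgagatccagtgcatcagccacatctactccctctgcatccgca
DYSF: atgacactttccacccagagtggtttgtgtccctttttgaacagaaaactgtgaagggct
PTRF: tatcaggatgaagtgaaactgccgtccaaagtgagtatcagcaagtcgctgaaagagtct
CAV1, A_69_P003378: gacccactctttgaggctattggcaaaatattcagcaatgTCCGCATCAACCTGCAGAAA
CAV1, A_69_P003377: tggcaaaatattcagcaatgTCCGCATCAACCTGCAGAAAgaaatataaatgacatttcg

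By the positions in the array annotation, on genome build EquCab1, the *MURC* probe lies at chr25:28491143-28491202, that of *PACSIN3* at chr12:8990879-8990938, that of *CAV3* at chr16:8010851-8010910 and that of *DYSF* at chr15:27771949-27772008, all on the minus strand. For *MURC*, *CAV3*, *DYSF* and *PTRF*, 1 of the 3 reading frames of the probe holds no stop codon before its last codon, whereas all 3 are open in that of *PACSIN3*. The annotation places the ends of the *PTRF* probe on the plus strand at chr11:19335074-19345230, a span of 10157 bases for 60 bases of probe, so the probe joins stretches that lie apart in the genome. The *CAV1* and *CAV2* probes are neighbours on the plus strand of chromosome 4, with 46156 bases between the last *CAV2* probe and the first *CAV1* probe. The share of G and C in the 16 probes was between 35% and 60%.

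Of the 9 members that could be tested, 2 passed the threshold of the limma test (adjusted *P* of at most 0.05, adjusted over 27384 probes), which compares with 22.8% of all tested probes and 22.7% of the 9820 named genes by their brightest probe, so the members passed no more often than other genes. Both were muscle members and both were lower, *MURC* and *DYSF*, but the call of *DYSF* ended in 6 of 15 other settings, some of which repeat the main fit. Of the 5 tested widely expressed members 0 passed, while 2 had an unadjusted *P* under 0.05 in limma, as did 38.5% of all tested probes, and 1 in a t-test. By comparison, 11.6% of all tested probes were called lower and 11.2% higher (named genes 11.2% and 11.4%). All 4 muscle members had a mean log2 ratio of HMB over control below 0, with a median of -0.34. All 5 tested widely expressed members had one above 0, with a median of 0.15. Of these, *EHD2* was below 0 with normexp and loess and without array 1 or array 2, and *PRKCDBP* was below 0 without array 1. The median over the 9 members was 0.00, beside 0.02 for all tested probes and 0.03 for the named genes. Of the called probes of the array, 3071 were higher and 3186 lower, so that 49.1% were higher. Centring on the median of each array without the lowess step made that 59.2%, and analysing the channels with no pairing within arrays made it 29.9%.

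*MURC* (ENSECAT00000006670), the muscle cavin, had log2 ratios of -0.67, -0.65, -0.83 and -0.87 on arrays 1 to 4. Every array gave a lower value in HMB-treated cells, and the ratios lay close together. The processed signal of the probe was 1641, 1605, 1651 and 1491 in control cells and 1031, 1022, 926 and 817 in HMB-treated cells on the same arrays. The channels did not overlap, the highest treated value being well under the lowest control value. The mean ratio was -0.76 ± 0.11 (SD, *n* 4; standard error 0.07, adjusted *P* = 0.00193 in limma), which is 59.2% of the control level. Only 760 of the 27384 tested probes, or 2.78%, had a lower mean. The study had itself picked *MURC* from these arrays, so its call is not independent evidence.

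**Figure D1:**
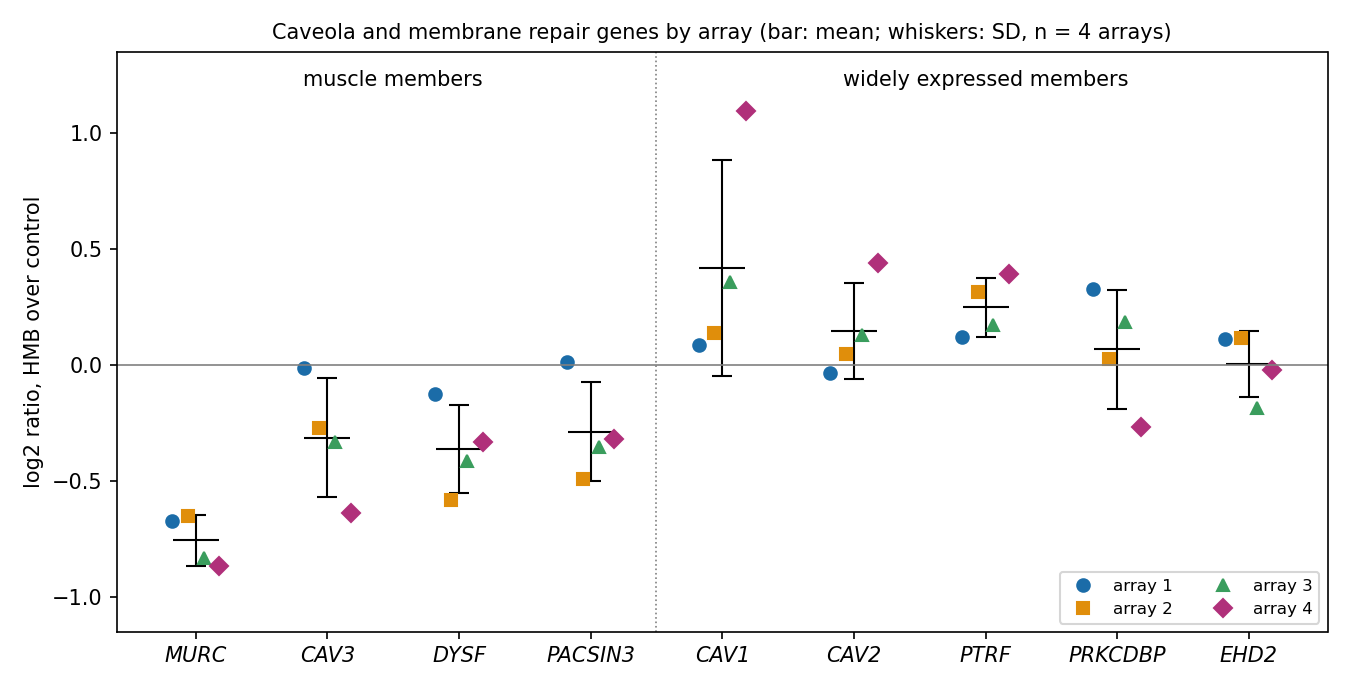
Log2 ratio of HMB over control for the 9 tested members, with a symbol for each of the 4 arrays, a bar at the mean and whiskers of 1 SD. The 4 muscle members, on the left, have means below 0, led by *MURC* at -0.76, and the 5 widely expressed members have means from 0.00 (*EHD2*, which is below 0 with normexp and loess) to 0.42 (*CAV1*).

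*DYSF* (ENSECAT00000008744) had log2 ratios of -0.12, -0.58, -0.41 and -0.33 on arrays 1 to 4, a mean of -0.36 ± 0.19. It was lower on 4 of 4 arrays, least on array 1. Its processed signals were 566, 538, 531 and 460 in control cells and 519, 359.97, 399 and 366 in HMB-treated cells, and the ranges overlapped through array 1 of the treated and array 4 of the control cells. The mean was 77.8% of the control level and passed the threshold in limma (standard error 0.09, adjusted *P* = 0.0303). The call ended without array 2 (adjusted *P* = 0.126), array 3 (0.112) or array 4 (0.0601), and in a t-test (0.133), with no pairing within arrays (0.13) and with no filter on dim probes (0.0964), whereas the mean stayed between -0.44 and -0.29 over 15 other settings, with adjusted *P* from 0.0152 to 0.133.

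*CAV3* (ENSECAT00000021958), the muscle caveolin, had log2 ratios of -0.01, -0.27, -0.33 and -0.64 on arrays 1 to 4. Array 1 showed next to no difference and array 4 the widest. The mean, -0.31 ± 0.26, did not pass the threshold in limma (adjusted *P* = 0.0761), and its processed signal overlapped between the channels. Without array 1 the mean was -0.41 and did pass (adjusted *P* = 0.0459), and without array 4 it was -0.21 and did not (0.148), while over all 15 other settings adjusted *P* lay between 0.0459 and 0.223.

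*PACSIN3* (ENSECAT00000027122) gave 0.01, -0.49, -0.35 and -0.32 on arrays 1 to 4, so that array 1 again showed no difference while the others were lower. Its mean of -0.29 ± 0.21 did not pass in limma (adjusted *P* = 0.0687). It passed without array 1, at -0.39 (adjusted *P* = 0.0285), and with normexp background correction and loess, at -0.31 (0.0429), within a range of 0.0285 to 0.423 over the 15 settings.

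In order of the mean ratio, *MURC* was followed by *DYSF*, *CAV3* and *PACSIN3*, and the last 3 differed from each other by less than their SD. The gap from *MURC* to *DYSF* was -0.55, -0.07, -0.42 and -0.54 on arrays 1 to 4, averaging -0.39 ± 0.22, and that from *MURC* to *CAV3* was -0.66, -0.38, -0.50 and -0.23, a mean of -0.44 ± 0.18. Both were below 0 on all 4 arrays, for which an exact two-sided test over sign changes of entire arrays gives *P* = 0.125, the smallest it can give with its 8 distinct outcomes. Since the study had picked *MURC* from these arrays, neither gap is independent evidence.

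**Figure D2:**
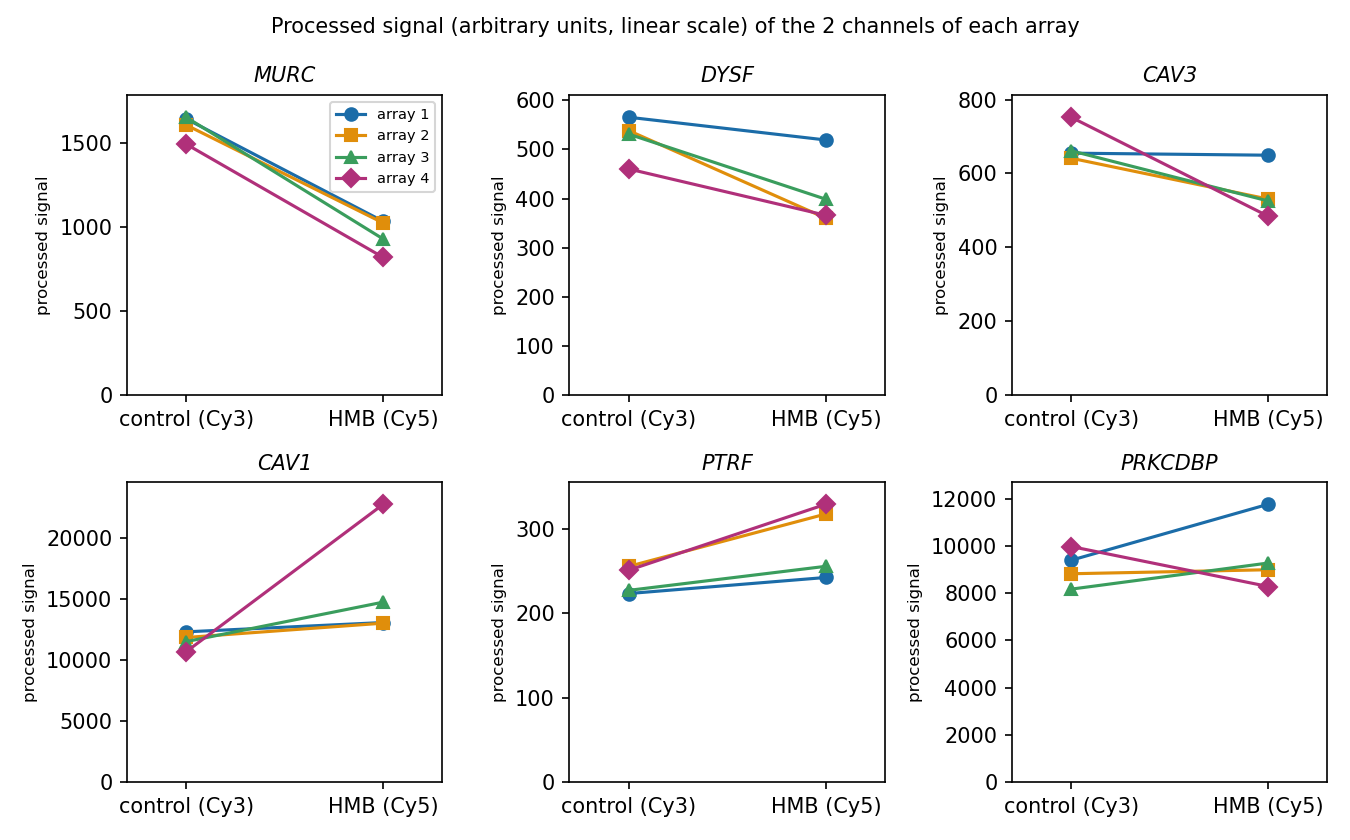
Processed signal, in arbitrary units on a linear scale from 0, of the control (Cy3) and HMB (Cy5) channels for 6 members, with a line for each of the 4 arrays. The *MURC* lines all fall and the channels do not overlap, the *CAV1* lines all slope up with array 4 far above the rest, and of the *PRKCDBP* lines that of array 4 slopes down.

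Among the widely expressed caveolins, the brightest *CAV1* probe (A_69_P001396) had log2 ratios of 0.09, 0.14, 0.36 and 1.09 on arrays 1 to 4. It was higher in HMB-treated cells on each array, but most of its mean of 0.42 ± 0.46 came from array 4. The processed signal in control cells was 12307, 11843, 11505 and 10676, and in HMB-treated cells 13072, 13019, 14745 and 22773. The channels did not overlap, yet the mean did not pass the threshold in limma (adjusted *P* = 0.122). Without array 4 it was 0.19, and in no setting did it pass, with means from 0.19 to 0.65 and adjusted *P* from 0.0548 to 0.318.

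The other *CAV1* probes had like values, and 0 of the 5 passed in limma. Their means ran from 0.26 to 0.45 and their adjusted *P* from 0.0841 to 0.325. On array 4 all of them had ratios between 0.98 and 1.09, while on array 1 they had ratios between -0.12 and 0.11. Of the 5, 3 overlap at chr4:73229378-73229477 and share the bases in capitals above, with means of 0.42 to 0.45, so they are not separate measurements of the gene. The other pair, at chr4:73231223-73231343, gave 0.26 and 0.42. Before adjustment, 4 of the 5 had a *P* under 0.05 in limma, from 0.0258 to 0.0457, and in the t-test none did, nor did any pass after adjustment.

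*CAV2*, which forms mixed oligomers with *CAV1*, had log2 ratios of -0.03, 0.05, 0.13 and 0.44 on arrays 1 to 4 by its brightest probe. Array 4 was again the highest. The mean of 0.15 ± 0.21 did not pass in limma (adjusted *P* = 0.284). It was 0.05 without array 4 and 0.33 without lowess, and passed in none of the 15 settings (adjusted *P* from 0.0867 to 0.639). The neighbouring probe gave -0.10, 0.05, 0.15 and 0.51, but the third, at chr4:73181056-73181115, gave 0.10, 0.14, 0.14 and 0.16, so the high value of array 4 was seen with 2 of the 3 probes. Their means were nearly alike, from 0.14 to 0.15.

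**Figure D3:**
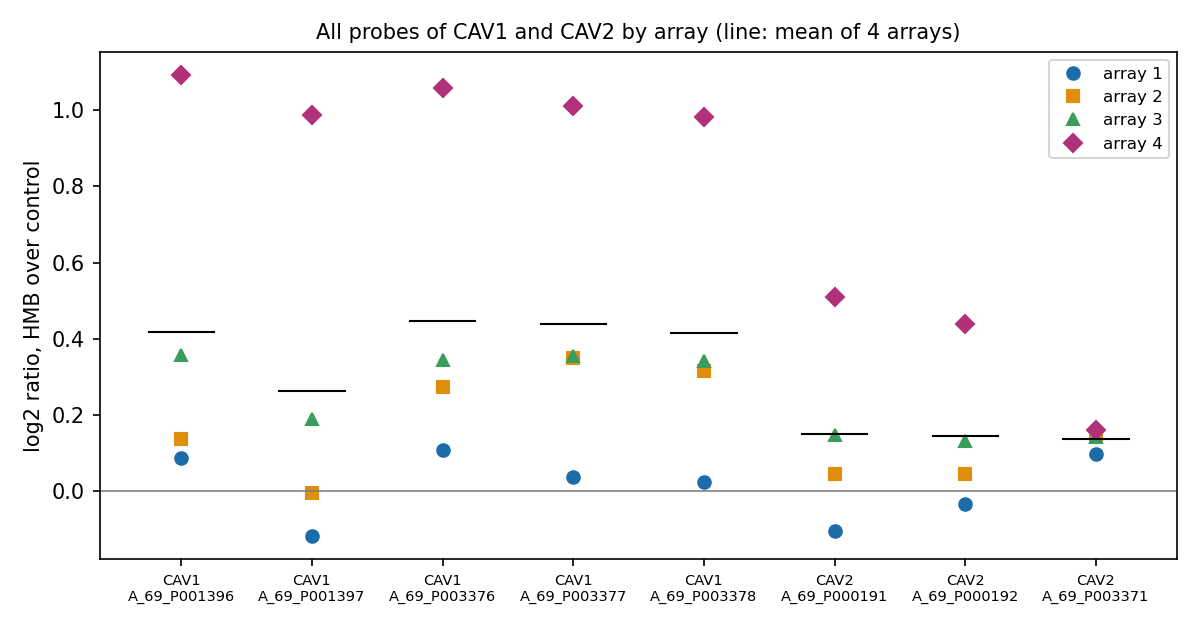
Log2 ratio of HMB over control for each of the 5 *CAV1* and 3 *CAV2* probes, with a symbol for each array and a line at the mean. Array 4 lies near 1 for every *CAV1* probe, at 0.44 and 0.51 for a pair of *CAV2* probes and at 0.16 for the remaining one.

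*PTRF* (ENSECAT00000015756), the cavin without which caveolae do not form, had log2 ratios of 0.12, 0.31, 0.17 and 0.39 on arrays 1 to 4. It was higher in HMB-treated cells on all of them, with a mean of 0.25 ± 0.13, which is 119% of the control level. Its processed signal was 224 to 256 in control cells and 243 to 330 in HMB-treated cells, so the channels overlapped. The mean missed the threshold narrowly in limma (standard error 0.07, adjusted *P* = 0.0505). It passed when both channels had to be above background (0.0484) and with ratios centred on the array median without lowess (0.0448), and over the 15 settings adjusted *P* lay between 0.0448 and 0.246.

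*PRKCDBP* (ENSECAT00000000682) gave 0.33, 0.03, 0.18 and -0.27 on arrays 1 to 4, a mean of 0.07 ± 0.25 with no common direction (adjusted *P* = 0.673 in limma). Without lowess its mean was 0.26 (adjusted *P* = 0.0536, within 0.0536 to 0.909 over the 15 settings). Array 4 gave its lowest ratio, unlike in *CAV1* and *PTRF*. *EHD2* (XM_001503200) gave 0.11, 0.12, -0.19 and -0.02, a mean of 0.00 ± 0.14 (adjusted *P* = 0.968), and its sign turned with normexp and loess. *SDPR*, a further widely expressed cavin, was not tested. Its ratio was below 0 on 4 of 4 arrays, against the direction of the tested members of its group, but was read near background. Its signal was well above background in control cells on 2 of 4 arrays and in HMB-treated cells on 0 of 4, so no fold is given.

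Among the tested caveolins and cavins, which leaves out *SDPR*, the muscle form had a lower mean ratio than the common forms. *MURC* minus *PTRF* was -0.79, -0.97, -1.004 and -1.26 on arrays 1 to 4, averaging -1.004 ± 0.19 on the log2 scale. *MURC* minus *PRKCDBP* was -0.996, -0.68, -1.02 and -0.60, a mean of -0.82 ± 0.21. The cavin gap was thus wide on every array, and each has *P* = 0.125 in the exact sign-reversal test, the smallest possible. Since the study had picked *MURC* from these arrays, neither cavin gap is independent evidence. *CAV3* minus *CAV1* was -0.10, -0.41, -0.69 and -1.73, a mean of -0.73 ± 0.71 (exact *P* = 0.125), and *CAV3* minus *CAV2* was 0.02, -0.32, -0.46 and -1.08, a mean of -0.46 ± 0.46 (exact *P* = 0.25). The caveolin gap rested largely on array 4 and was close to 0 on array 1. *PACSIN3* minus *PACSIN2*, the form of most tissues, was -0.22, -0.63, -0.55 and -0.65, a mean of -0.51 ± 0.20 (exact *P* = 0.125).

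Averaged over the group, the log2 ratios of the muscle members were -0.20, -0.50, -0.48 and -0.54 on arrays 1 to 4, and those of the 5 tested widely expressed members 0.12, 0.13, 0.13 and 0.33. The difference was -0.32, -0.63, -0.61 and -0.87, a mean of -0.61 ± 0.22. It was below 0 on each array, smallest on array 1 and widest on array 4. On arrays 2, 3 and 4 every muscle member lay below every widely expressed one. On array 1 the groups overlapped, *PACSIN3* at 0.01 lying above *CAV2* at -0.03. With *CAV3* and *MURC* alone as muscle members the mean difference was -0.71 ± 0.27. With no filter on dim probes, *SDPR* joined the widely expressed group with a ratio read near background, and the difference was -0.32. Members are not replicates, so no *P* is given for the difference. The members were chosen with earlier results of these data known, and the study had picked *MURC* from these arrays. The difference and the order of the groups are thus not independent evidence.

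**Figure D4:**
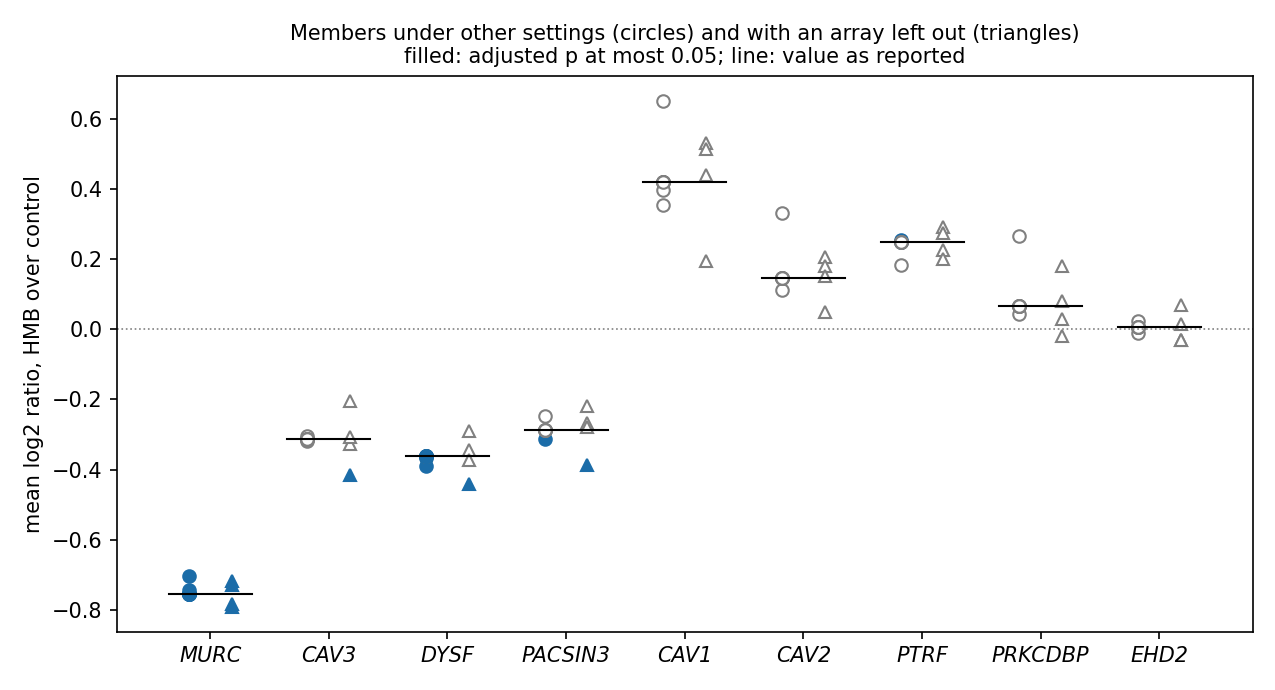
Mean log2 ratio of HMB over control of each tested member under the other settings, as circles, and with an array left out, as triangles; filled symbols have an adjusted *P* of at most 0.05 and the line is the value in the text. *MURC* is filled throughout, *DYSF* in 9 of 15 settings, and *CAV1*, *CAV2*, *PRKCDBP* and *EHD2* in none. Some of the settings repeat the main fit and could not move a call.

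The arrays differed in how far they spread. The SD of the log2 ratio over all tested probes was 0.35, 0.34, 0.39 and 0.48 on arrays 1 to 4. The part of this spread in the member values was not tested. Leaving out array 1 raised the count of called members to 4, adding *CAV3* and *PACSIN3*, and leaving out array 2, 3 or 4 lowered it to 1, *MURC*. Of the 27384 tested probes, 4823, 2564, 2729 and 4981 were called without arrays 1, 2, 3 and 4, against 6257 with all of them. A one-sample t-test, which takes each probe on its own 4 ratios, called 1 of the 9 members, *MURC* (adjusted *P* = 0.0445), beside 2.8% of all tested probes (1.26% higher, 1.54% lower).

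Of 15 genes on the list of caveola and lipid raft partners, 12 were tested and 1 was called, beside 22.7% of all named genes. It was *PACSIN2*, with log2 ratios of 0.23, 0.14, 0.20 and 0.34 and a mean of 0.23 ± 0.08 (adjusted *P* = 0.0467 in limma). Its call ended with any array left out (adjusted *P* from 0.0839 to 0.148) and with normexp and loess. The list had a median of 0.11. Means that did not pass were 0.11 and 0.20 for the flotillins *FLOT1* and *FLOT2*, -0.17 and -0.38 for *EHD1* and *EHD4*, relatives of *EHD2*, and -0.15 for *FLNA*, the filamin that ties caveolae to actin, though *EHD4* was called lower without lowess. Probes of *EHD3* and *NOS3* were not well above background, and *NOS1* had no probe by name. On the list of *RHOA* and ROCK genes, through which *MURC* is known to act in heart muscle, 0 of 7 tested genes passed in limma, 0 had an unadjusted *P* under 0.05 in limma or the t-test, with a median of -0.04, and *RHOA* itself had a mean of -0.01.

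Membrane repair genes outside the set were mixed. Among ferlins and calpains, 0 of 5 tested genes passed in limma, 0 had an unadjusted *P* under 0.05 in limma or the t-test, with a median of 0.02. *MYOF*, which encodes myoferlin, the ferlin of myoblast fusion and a relative of dysferlin, had 0.45, 0.29, 0.16 and -0.05 on arrays 1 to 4, a mean of 0.21 (adjusted *P* = 0.147) that was called without lowess, and *CAPN3*, the muscle calpain, was not well above background. Of the 13 annexin and S100 genes, whose proteins bind calcium and gather at membrane wounds, 2 were called, beside 22.7% of all named genes. These were *S100A6* at 0.33 and *S100A10* at 0.30, both higher, and the list median was 0.05. Both were called with array 1 left out but not with any other left out, for which adjusted *P* lay between 0.0508 and 0.122. Without lowess 8 of the 13 were called higher and the median was 0.35, so this list depends on the dye normalisation. *ANXA2*, the partner of *S100A10*, had a mean of 0.23 (adjusted *P* = 0.0528), and *ANXA6* one of -0.29 (0.0829). *ANXA2* and *S100A4* were called higher with normexp and loess, and also without lowess. *AHNAK* was not called by its brightest probe, with a mean of 0.14, whereas its other probe was called, at 0.55.

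Of the repair vesicle and ESCRT genes, 15 of 16 were tested and 4 were called, 2 in each direction, with a median of 0.00. *ANO5*, which encodes a membrane protein of muscle whose loss causes a dystrophy akin to that of dysferlin, fell on every array, at -0.58, -0.79, -1.06 and -0.99. Its mean was -0.86 ± 0.22 (adjusted *P* = 0.00335 in limma), and both its probes were called. *SMPD1*, which encodes acid sphingomyelinase, had a mean of -0.35 (adjusted *P* = 0.0169) by its brightest probe. Its probes disagreed, 3 of 4 being called and the remaining one having a mean of -0.11. The call of *SMPD1* ended without array 2 (0.0822) or array 3 (0.0782), and also without lowess. *VAMP8*, a protein of vesicle fusion, rose by an even amount on the arrays, 0.60, 0.49, 0.52 and 0.54 (adjusted *P* = 0.00335). *VAMP7* had a mean of 0.27 (adjusted *P* = 0.0375) with 1 of 2 probes called, and passed with array 1 left out (0.0477) but not with array 2, 3 or 4 left out (0.0614 to 0.157). The repair protein gene *TRIM72*, whose product works with dysferlin and *CAV3*, was not well above background. Over all 6 lists, less 1 T tubule gene taken off after its values were seen, 12 of 58 tested genes were called. That is 20.7%, beside 22.7% of all named genes, with 5 higher and 7 lower. Without lowess 12 were called higher and 7 lower, with no pairing within arrays 0 and 5, and in the t-test 1 was, *VAMP8* (adjusted *P* = 0.0343).

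T tubules are the inward folds of the muscle membrane whose formation draws on *CAV3*. The list named after them is not limited to proteins of the tubule membrane. It gave 5 calls among 6 tested genes, all lower, with a median of -0.78, beside 11.2% of all named genes called lower. These counts and the median leave out 1 gene, taken off the list after its values were seen, and what they would be with it is not given. The list was thus not fixed in advance, so nothing is concluded from setting its count beside that share. The brightest probes of *JPH1*, *CACNA1S*, *RYR1*, *STAC3* and *TCAP* had means between -0.98 and -0.62, though of 9 tested *RYR1* probes 6 were called, with means from -0.97 to -0.07, and *BIN1*, which encodes a membrane-bending protein, had one of -0.03. Without array 3 the call of *JPH1* ended (adjusted *P* = 0.0512). The list medians were -0.47, -0.70, -0.74 and -1.03 on arrays 1 to 4. *MTM1* was not tested, being well above background in HMB-treated cells on 3 of 4 arrays and in control cells on 0, with ratios above 0 on each array. Probes of *JPH2* and *AMPH* were well above background on no array.

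**Figure D5:**
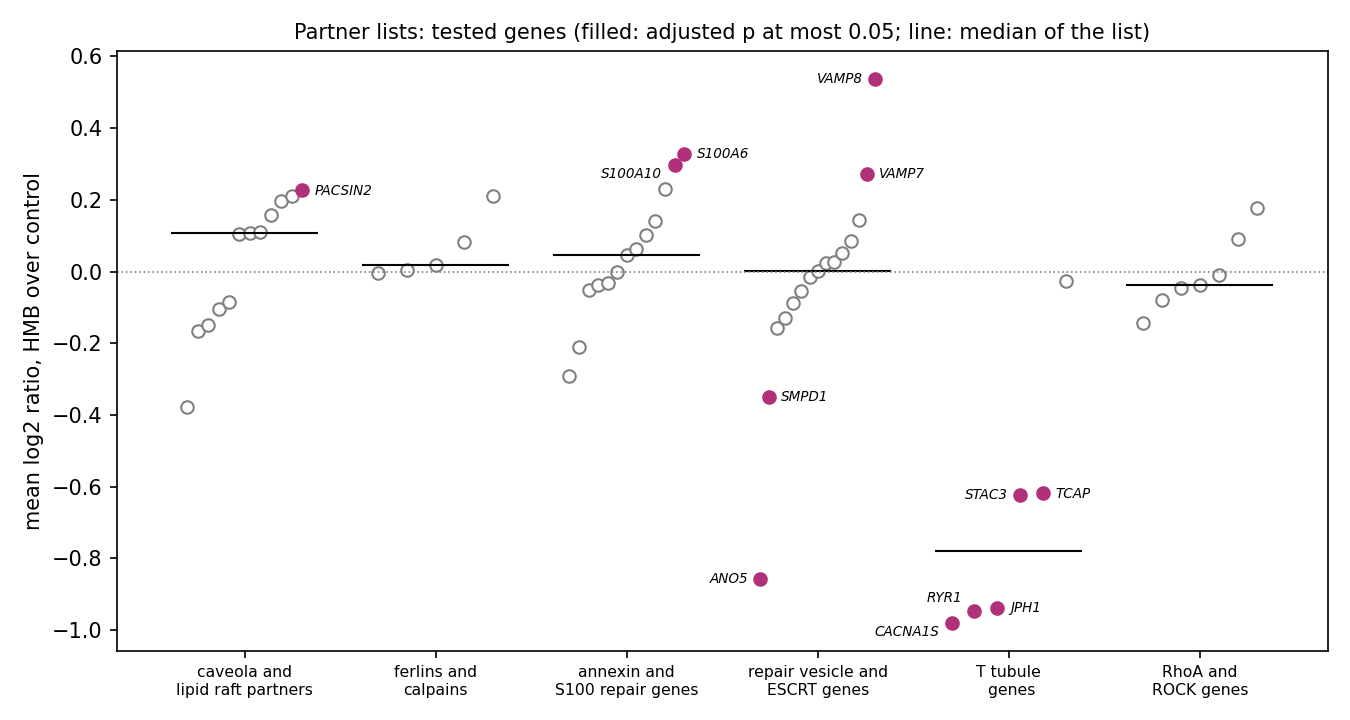
Mean log2 ratio of HMB over control of the 58 tested genes of the 6 partner lists, filled where the adjusted *P* was at most 0.05, with a line at each list's median. The T tubule list, less 1 gene taken off after its values were seen, has its median at -0.78. The other lists have medians between -0.04 and 0.11.

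Most markers of muscle cells were called lower in HMB-treated cells in limma. Of 9 markers of the differentiating myocyte, 9 were tested and 7 called, all lower, beside 11.2% of all named genes called lower. The called ones were *MYOG*, *MYF6*, *MYH3*, *MYH8*, *ACTA1*, *CKM* and *TNNT3*, and the list had a median of -0.80. The list median was -0.23, -0.78, -0.95 and -1.31 on arrays 1 to 4. The summed processed signal of these markers was 172729, 173271, 184811 and 195712 in control cells and 129213, 88414, 82109.8 and 72675 in HMB-treated cells, the brightest probe being that of *MYH3*. Of 10 satellite cell or myoblast markers, 8 were tested and 6 called, all lower, beside the same 11.2%. The called ones were *MYF5*, *MYOD1*, *DES*, *CDH15*, *ITGA7* and *NCAM1*, and the 8 tested markers had a median of -0.82. Their summed signal was 44591, 43063, 47171 and 47890 in control cells and 32623, 24341, 22784 and 24018 in HMB-treated cells, with *DES* the brightest, and *PAX7* and *CXCR4* were not tested. *PAX7* was well above background on no array, and *CXCR4* on 3 arrays in control and 2 in HMB-treated cells. Of the 2 *MYOD1* probes 1 was called. In the t-test no marker of either list passed (adjusted *P* of the called ones from 0.0507 to 0.174). Without lowess the myocyte median was -0.38, much nearer to 0, and *MYH3* was not called, while the satellite cell or myoblast median was -0.67. The medians of both lists, like the mean of the muscle members, lay nearest to 0 on array 1. With an array left out, *MYF6* lost its call whichever it was, *MYOD1* and *CKM* kept it only without array 1, and *MYOG* and *TNNT3* lost it without array 2 or 3. In RNA from a whole culture, fewer muscle cells and less of an mRNA per muscle cell cannot be told apart. The part of the marker shift in the ratios of *MURC*, *DYSF*, *CAV3* and *PACSIN3* was not tested.

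*CAV1* and *PTRF* are abundant in fibroblasts and endothelial cells, and the cells had been preplated to reduce fibroblasts. Of 6 fibroblast markers 5 were tested and 1 was called, beside 22.7% of all named genes. It was *PDGFRA*, which was higher at 1.53 ± 0.47 (adjusted *P* = 0.00358 in limma). Its processed signal was low, though well above background, at 38, 35, 39 and 42 in control cells on arrays 1 to 4. In HMB-treated cells it was 81, 92, 108 and 191. *COL1A1* had a mean of -0.54, *THY1* of -0.10, *DCN* of 0.15 and *LUM* of 0.01, none of them called by the brightest probe. The other *DCN* probe was called, at 0.39. The call of *PDGFRA* ended in the t-test (adjusted *P* = 0.0775). The list median was 0.01, and without lowess 0.30 with 3 of the 5 called higher. The summed fibroblast signal was 126160, 121529, 127088 and 159943 in control cells and 159375, 111541, 112679 and 114428 in HMB-treated cells, with *DCN* the brightest and *TCF21* not tested, being well above background on 1 array in control and 2 in HMB-treated cells. *DCN* was called higher with normexp and loess and, like *LUM*, without lowess. The part of these cells in the ratios of *CAV1* and *PTRF* was not tested. The 5 endothelial markers (*PECAM1*, *CDH5*, *VWF*, *KDR* and *TEK*) and the 5 adipocyte markers (*ADIPOQ*, *PLIN1*, *FABP4*, *LEP* and *CIDEC*) were all below the filter on dim probes.

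Of 4 smooth muscle or pericyte markers 3 were tested and 1 was called, beside 22.7% of all named genes. It was *MYH11*, which was lower (adjusted *P* = 0.0368 in limma). Its HMB signal on array 4 was not well above background, so no mean or fold is given. The probe met the filter through the control channel alone, in which it was higher, so nothing is concluded from its call. That call was kept without array 4 (adjusted *P* = 0.00893 in limma) and lost without any other (0.0535 to 0.0802). All 3 had ratios below 0 on each array. Their median was -0.53, and array 4 stood out with a median of -1.34, against -0.19, -0.28 and -0.32 on arrays 1 to 3. The summed signal was 21177, 20581, 15111 and 14815 in control cells and 18570.4, 16933, 12129 and 5919 in HMB-treated cells, with *ACTA2* the brightest and *RGS5* not well above background. Array 4 was also the array on which *CAV1* was highest, and what these values share was not tested. Of 4 leukocyte markers 2 were tested and 1 was called, beside the same 22.7%, with *CD3E* and *ITGAM* not well above background. *PTPRC* was called at 0.28 by its brightest probe, and of its 8 tested probes 7 were called, but with means from -0.48 to 0.37. The call of the brightest ended with any array left out (0.0551 to 0.115). *CD68* had a mean of -0.29 and was not called. The summed signal of *PTPRC* and *CD68* was 11486, 10028, 12432 and 10091 in control cells and 15827, 11568, 14463 and 11635 in HMB-treated cells, most of it from *PTPRC*.

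The genes whose 4 log2 ratios lay closest to those of *MURC*, by Euclidean distance among 9815 named genes with a value on each array, were *BDH1* (distance 0.0873), *SYT17* (0.0991), *EQMCE1* (0.117), *ARPP21* (0.151) and *C1H15ORF52* (0.16). *BDH1*, which encodes a mitochondrial enzyme of ketone body metabolism, had ratios of -0.70, -0.72, -0.81 and -0.83. Those closest to *CAV1* were *MEOX2* (0.146), *SOCS5* (0.146), *H4C16* (0.247), *CEP89* (0.259) and *LATS1* (0.263), and *MEOX2*, which encodes a homeobox factor, had ratios of 0.10, 0.27, 0.39 and 1.03.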

How the data were processed

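RNA of HMB-treated (Cy5) and control (Cy3) ESC was measured on 4 two-colour arrays of 1 slide. Spot intensities were made by the authors with Feature Extraction, version 10.10.1.1 per the file headers. The deposited intensities include raw mean signals, background-subtracted signals and processed signals, the last also corrected for trend and dye. The log10 ratio of a spot, Cy5 to Cy3, comes from the authors after linear and lowess normalisation. Other deposited columns hold marks of 0 or 1. The summary table had the same log10 ratios as the deposited arrays (largest difference 0).

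Here the ratios were converted to log2 (times 3.32). Control spots (1417 an array) were dropped, as were those marked non-uniform or outlying (11, 17, 32 and 15), no spot was saturated, and replicate spots were averaged. Testing required 1 channel to exceed background clearly on every array, with values on 3 or more, which kept 27384 probes and left 16219 untested. The median signal over background was 3.52, 3.16, 3.52 and 3.82 in Cy3 and 4.68, 5.85, 4.81 and 4.74 in Cy5, and with 4 arrays the precision is limited by their number.

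Symbols came from the files for 24960 probes, from their description for 204, and from the RefSeq gene table by accession for 898 or by gene number for 1427, and 16114 had none. A gene is represented by its brightest tested probe. limma 3.58.1 in R 4.3.3 compared each ratio with 0, two-sided (intercept only), with *P* adjusted by the method of Benjamini and Hochberg across all tested probes, threshold 0.05. The procedure was tested on simulated data. Channels of the same array deviated together from their group means (correlation over probes 0.591, 0.643, 0.453 and 0.627), and the ratio keeps that pairing. Other tools were Python 3.11.15, numpy 2.4.6, pandas 2.3.3 matplotlib 3.10.9 and version 1.17.8 of data.table.

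The members and lists were chosen with earlier results of these data known, and 1 gene was taken off the T tubule list after its values were seen and is not reported. Every member and list gene may be named, and the genes most alike are the 5 nearest to the muscle member and to the widely expressed member of largest absolute mean ratio (*MURC* and *CAV1*). The alternatives were normexp (offset 50) with loess, median centring without lowess, a one-sample t-test (the methods section names none), limma's robust fit with a trend on intensity, separate channels with or without the array as replicate block, no filter, both channels above background, marked spots kept, all probes of a gene averaged, values of the summary table, and each array left out. Promoter sequences were not used here.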

Additional observations from a re-analysis of the deposited data

Results flagged for a closer look

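The 4 log2 ratios of each of 113 named probes, members, list genes, markers and the genes most alike, were searched for an array lying far from the rest, taking the gap to its nearest neighbour as a share of the whole range and the critical value of Dixon at the 95% level as the limit. Chance alone marks about 1 in 20 such groups, and 8 were marked here, 3 through array 1, 1 through array 3 and 4 through array 4. No probe of the 10 caveola and repair genes was among them.

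Array 4 stood apart for *ANXA4*, at -0.78 with the others between -0.05 and 0.00, and for the smooth muscle markers *CNN1*, at -1.10 with the others between -0.18 and -0.11, and *ACTA2*, at -1.34 with the others between -0.32 and -0.19. It also did so for *LATS1*, at 0.92 with the others between 0.19 and 0.26, but this gene was picked for its likeness to *CAV1*, itself highest on array 4, so the chance rate does not apply to it. Array 1 stood apart for *CHMP3*, at -0.50, for *CACNA1S*, at -0.48 with the others between -1.23 and -1.10, and for *PTPRC*, at 0.47. Array 3 did so for *ANXA2*, at 0.074 with the others between 0.27 and 0.30.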

How the results depend on the processing

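Over 135 values of single members under other settings, 120 kept their direction and side of the threshold, 6 lost the call (all *DYSF*), 5 gained it and 4 changed sign. The summary table values and the array as replicate block repeat the main fit, so neither could move a call. Averaging all probes of a gene left the ratios of members with 1 probe as they were. The counts over settings are therefore not counts of independent checks. *MURC* passed in 15 of 15 settings, with means from -0.79 to -0.70 and adjusted *P* from 0.001 to 0.0445. The sign changes were those of *EHD2*, at -0.011 with normexp and loess and from -0.032 (without array 2) to 0.068 with an array left out, and of *PRKCDBP*, from -0.019 (without array 1) to 0.18 with an array left out. *EHD2* was below 0 without array 1 as well, at -0.031.

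The count of called probes, 6257, was 768 in a one-sample t-test, 2226 with the channels separate and no replicate block, 3690 with no filter on dim probes, and from 2564 to 4981 with an array left out. With the array as a replicate block in separate channels it was 6257, since the ratio already holds the pairing, and that block changed no member's call. Of the members, 2 as reported, 1 was called in the t-test, 1 with no replicate block and 1 with no filter, and from 1 to 4 with an array left out. The difference between muscle and widely expressed members, -0.61, was -0.32 with no filter, through *SDPR* entering, and from -0.70 to -0.52 with an array left out. The count of called list genes, 12, was 19 without lowess, 1 in the t-test, 5 with no replicate block, 6 with no filter and from 6 to 11 with an array left out. The cause of these shifts was not tested. The search of promoters for motifs was not run, and neither variance model nor block bears on the difference between member groups. Signal near background limits *SDPR*, *TRIM72* and *CAPN3*.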

Other observations

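Of the 27384 tested probes, 12701, or 46.4%, had the same sign on all 4 arrays. Among the 9 tested members 5 did so by their brightest probe, 3 of them muscle members (*MURC*, *CAV3* and *DYSF*, lower) and 2 widely expressed (*CAV1* and *PTRF*, higher). Before adjustment 6 of the 9 had a *P* under 0.05 in limma, against 10546, or 38.5%, of all tested probes. *EHD2* minus *EHD1* was 0.01, 0.38, -0.07 and 0.37 on arrays 1 to 4, with no common direction.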
